A study of Mus musculus with 9 samples.

Results

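This report is about 45 mouse genes whose transcripts were at least 3 times higher in primed mEpiSCs at passage 15 (P15) than in any of 3 other groups of pluripotent cells. The measurement was bulk RNA-seq of 9 libraries, given as raw counts for 54232 genes. All libraries carry the strain label C57 x CBA. The 2 naïve groups, at P5 and P15, were mESCs of a line with a GFP reporter under the distal Oct4 promoter, kept in serum and leukemia inhibitory factor (LIF). The 2 primed groups, at P5 and P15, were the same kind of cells converted in medium with Fgf2 and Activin A, and each of these 4 groups had 2 libraries. Naïve and primed cells both grew on mitomycin C-treated mouse embryonic fibroblasts (MEFs) as feeders, and the fifth group was 1 library of MEFs. The study calls such libraries biological repeats, without saying how the cultures were separated, and p-values below measure the spread between these libraries alone.

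The genes were chosen by measured values. Each count was scaled to counts per 1000000 counts of the library (CPM), 0.5 was added, and the 2 libraries of a group were averaged. A gene was taken when this level was at least 5 in primed P15 cells and at least 3 times the level in naïve P5, naïve P15 and primed P5 cells, with symbols beginning Wnt, Krt, Cldn or Col left out. Of 11488 genes at a level of 5 or more, 47 met the folds (0.409%), and Wnt3 and Wnt8a were then left out. A level of 3 times that of naïve P5 cells was met by 5.95% of the 11488 genes, 3 times that of naïve P15 cells by 6.17%, and 3 times that of primed P5 cells by 0.662%. Hence the step from primed P5 to primed P15 was the narrowest condition. Because the rule used these contrasts, all values of primed P15 cells against the other pluripotent groups are descriptions and carry no test.

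Primed mEpiSCs resemble the epiblast after implantation. They are kept by Activin and FGF signalling, whereas naïve mESCs resemble the epiblast before implantation and are kept by LIF through STAT3. Activin and its embryonic counterpart Nodal act through Smad proteins and induce their own secreted inhibitors, the Lefty proteins. At the primitive streak, Nodal and FGF signals act together with transcription factors such as Mixl1 when mesoderm and endoderm form. Interferon-stimulated genes and acute phase genes are among the usual targets of STAT proteins, and pluripotent cells are known for a weak interferon response.

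The cells matched their state labels. Esrrb, a naïve factor, was at 439 to 506 CPM in the 4 naïve libraries, at 64.5 and 65.3 CPM in primed P5 cells and at 4.63 and 3.57 CPM in primed P15 cells. Fgf5, a marker of the primed epiblast, was at 1.38 to 1.67 CPM in naïve cells and at 136 to 145 CPM in all primed libraries. The libraries of pluripotent cells summed to between 14378051 and 20985136 counts and that of MEFs to 25646547. A count of 0 allows up to 3 counts, or 0.117 to 0.209 CPM depending on the library, from counting error alone.

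Promoter sequences were at hand for 31 of the 45 genes (RefSeq, GRCm38.p6, from 250 bases before to 50 bases after the transcript start). As 68.9% is less than the 80% needed, no share over the 45 genes is read from them. The stretches below belong to genes whose values are described further on, and their letters are read 5′ to 3′ along the gene's strand. In the first pair, capitals mark the letters GAAANNGAA or their reverse complement TTCNNTTTC, a core of the interferon-stimulated response element. In Isg15 (chr4:156200819-156200938, minus strand), the bases 120 to 1 before the start hold 3 such matches, each sharing its last letters with the next. In Pcp4l1 (chr1:171196419-171196518, minus strand), the bases 250 to 151 before the start hold 3 separate matches on the opposite strand.
Isg15: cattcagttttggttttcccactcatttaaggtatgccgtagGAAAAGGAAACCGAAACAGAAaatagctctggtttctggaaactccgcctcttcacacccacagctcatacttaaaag
Pcp4l1: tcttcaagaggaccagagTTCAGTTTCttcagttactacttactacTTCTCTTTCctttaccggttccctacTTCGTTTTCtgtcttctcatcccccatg
In the second pair, capitals mark TTCNNNGAA, the palindromic core that STAT proteins bind, which reads the same on both strands. The stretches are the 120 bases before the RefSeq start in Steap4 (chr5:7960352-7960471, plus strand) and Serpina3g (chr12:104236027-104236146, plus strand). The RefSeq start lies 15 bases after the start of the gene coordinates given below in Steap4, and 98 bases before it in Serpina3g.
Steap4: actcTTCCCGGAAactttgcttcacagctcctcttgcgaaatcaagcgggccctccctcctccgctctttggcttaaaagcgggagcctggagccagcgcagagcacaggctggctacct
Serpina3g: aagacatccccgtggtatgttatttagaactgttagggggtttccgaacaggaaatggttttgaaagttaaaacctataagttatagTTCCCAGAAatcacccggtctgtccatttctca
The 120 bases before the start of Ccl8 (chr11:82115065-82115184, plus strand) show in capitals the letters TATAAA of a TATA box, which many inducible chemokine genes carry.
Ccl8: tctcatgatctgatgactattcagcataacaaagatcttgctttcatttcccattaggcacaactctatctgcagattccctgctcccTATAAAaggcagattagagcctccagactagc
Counted on either strand of the 20592 promoters of 300 bases in the table, the response element core was in 8.34%, the STAT core in 8.06% and TATAAA in 13.2%. Among the 31 promoters of the genes described here, the response element core was in 3 (9.68%), those of Angptl7, Isg15 and Pcp4l1. The STAT core was in 4 (12.9%), those of Ccdc85a, Galr2, Serpina3g and Steap4. TATAAA was in 6 (19.4%), those of Angpt4, Ccl8, Ifi47, Mup6, Pcp4l1 and Steap4. The letters searched also included GGGCGG (GC box), in 11 of the 31 promoters and 42.7% of all, and TGANTCA (AP-1), in 2 and 7.40%. TGTNNATT (FoxH1) was in 5 and 11.1%, CACGTG (E-box) in 0 and 7.66%, and GGAATTTCC (NF-kB) in 0 and 0.311%. A match of letters is a description and does not show that a protein binds there.

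Of the 45 genes, 44 are protein coding and Serpina3h is a transcribed pseudogene. Their mean level in primed P15 cells ran from 5.17 CPM for Arg1 to 1738 CPM for Trh, with a median of 16.4 CPM. All 45 had both primed P15 libraries above the other 6 pluripotent libraries, which the rule nearly fixes. With 0.5 added to each CPM, the lower primed P15 library was 2.31 times (Arg1) to 11.6 times (Chgb) the highest of those 6 libraries. By this measure it was at least 3 times that library in 31 genes. In CPM with nothing added, the higher of the 2 primed P15 libraries was 1.002 to 1.44 times the lower, with a median of 1.10. By the levels of the rule, the fold over the highest other group had a median of 3.60. It was under 4 in 29 genes, so that most genes lay near the limit. It was 5 or more in 8 genes, namely Chgb (13.6), Steap4 (9.97), Gad2 (9.31), Lzts1 (7.36), Epsti1 (7.25), Ednrb (6.42), Apln (5.33) and Angptl7 (5.24). Just inside the limit were Shisa6 (3.08), Trim67 (3.10), Mixl1 (3.15), Lum (3.16) and Pcp4l1 (3.17). Just outside it were Calcr (2.92), Olig1 (2.90), Nmi (2.88), Vegfd (2.86) and Adamts8 (2.79).

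The genes were not confined to late primed cells. In primed P5 cells 41 of the 45 had a mean of at least 1 CPM and 18 had at least 5 CPM. The 4 genes under 1 CPM in all 3 other groups were Epsti1, Gad2, Unc93a and Cbr2. For 39 genes the highest of the 3 other groups was primed P5. For Lefty1, Mup6, Apod, Gad2 and Galr2 it was naïve P5, and for Igf1 naïve P15. In the plot of every gene in every library, the primed P15 points form the right edge in each row except where the MEF point lies further right.

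**Figure D1:**
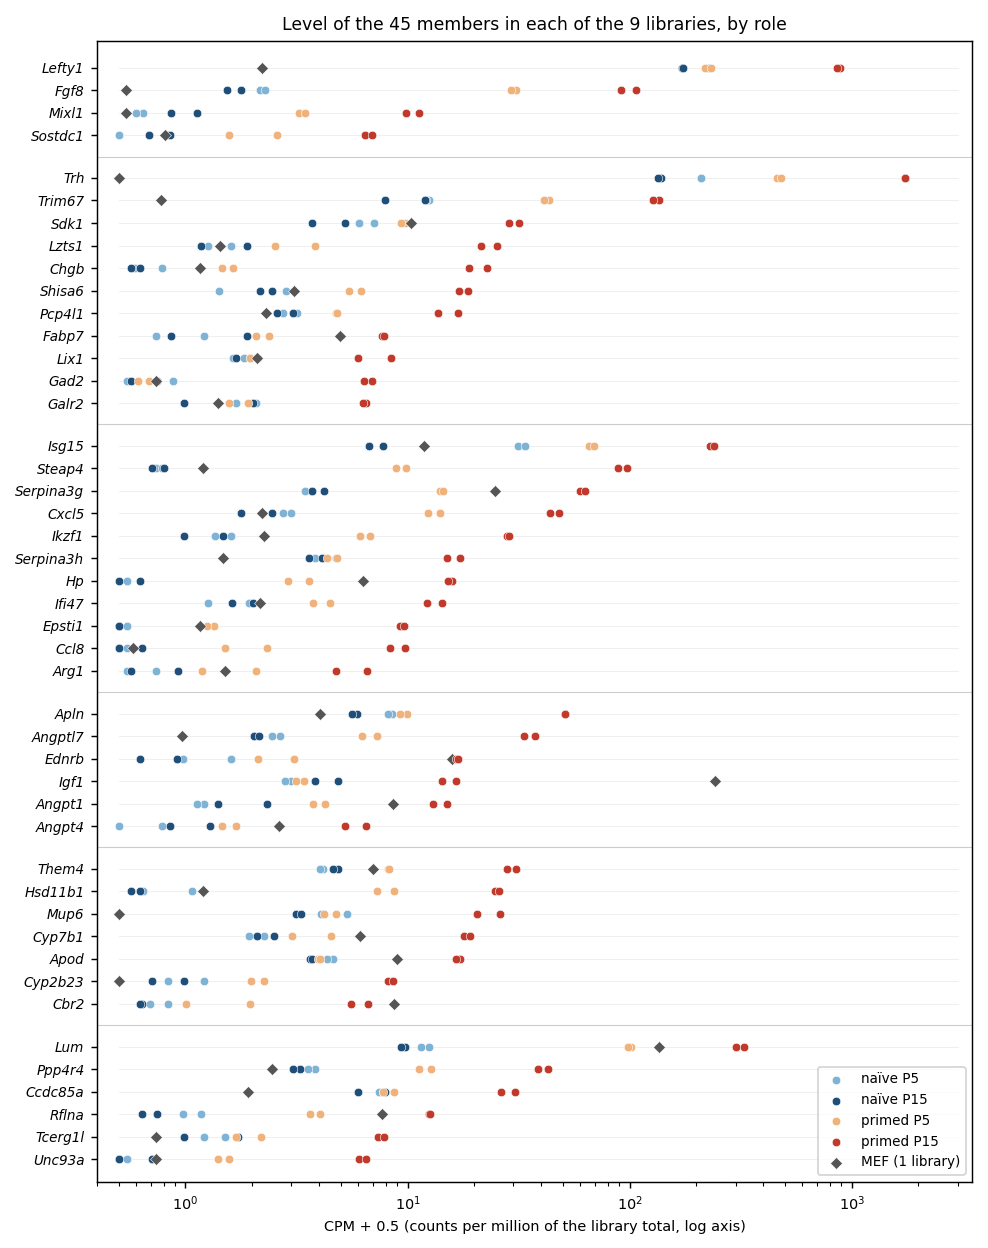
Level of the 45 genes in 9 libraries, as CPM + 0.5 on a log axis, with genes in rows grouped by role and each library a point (MEF a diamond). The 2 primed P15 points lie right of all other pluripotent points in every row, and the MEF point lies furthest right for Igf1 and Cbr2.

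The first group, of 4 genes, held signals and factors of germ layer formation. Lefty1, a secreted inhibitor of Nodal (chr1:180935022-180938400), was at 225 and 227 CPM in naïve P5, 172 and 174 in naïve P15, 219 and 233 in primed P5 and 886 and 856 in primed P15 cells. Its level was thus alike in naïve and primed cells at P5, where the groups overlapped, and set apart at primed P15, while MEFs had 1.72 CPM. Fgf8, an FGF ligand of the primitive streak (chr19:45736798-45742915), was at 1.67 and 1.77 CPM in naïve P5, 1.04 and 1.28 in naïve P15, 30.4 and 28.7 in primed P5 and 106 and 91.0 in primed P15 cells. Fgf8 was therefore at a low level in both naïve groups and stepped up at both primed passages. Mixl1, a homeobox factor of the primitive streak (chr1:180693043-180697034), was at 0.143 and 0.0957 CPM in naïve P5, 0.626 and 0.365 in naïve P15, 2.76 and 2.95 in primed P5 and 9.38 and 10.8 in primed P15 cells. Sostdc1, a secreted antagonist of BMP and Wnt signals, reached 5.97 and 6.45 CPM in primed P15 cells after 2.08 and 1.07 in primed P5 cells, and no naïve library exceeded 0.348 CPM. MEFs had 1 count each for Fgf8 and Mixl1, and all 4 genes stood there at no more than 5.03% of their primed P15 level.

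Lefty2, the close paralog of Lefty1, can share reads with it. Lefty2 was at 131 and 128 CPM in naïve P5, 78.2 and 83.2 in naïve P15, 370 and 366 in primed P5 and 279 and 293 in primed P15 cells. Unlike Lefty1, it was at its highest in primed P5 cells, so the 2 paralogs did not follow the same order of groups. Lefty2 was looked up after its values could be seen.

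A group of 11 genes has neural or neuroendocrine roles. Trh (chr6:92242061-92244650), which encodes the precursor of thyrotropin-releasing hormone, was the most abundant of the 45. It was at 208 and 209 CPM in naïve P5, 138 and 134 in naïve P15, 460 and 478 in primed P5 and 1736 and 1740 in primed P15 cells, with 0 counts in MEFs. Trh alone held 41.7% and 41.4% of the counts of the 45 genes in the primed P15 libraries. Per kilobase of exon, Trh (1256 CPM per kb) was above Lefty1 (495) and Isg15 (310) in primed P15 cells. Chgb, a granin of secretory vesicles (chr2:132781278-132795079), had the largest fold of all and was at 18.5 and 22.4 CPM in primed P15 cells. In primed P5 cells it was at 0.956 and 1.13 CPM, and in the 4 naïve libraries it ran from 0.0696 to 0.287 CPM. Gad2, an enzyme that makes the transmitter GABA, was at 5.85 and 6.45 CPM in primed P15 cells (101 and 112 counts) and had 1 to 8 counts in each of the other 6 pluripotent libraries. Gad2 thus had the fewest counts of this group outside primed P15 cells.

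Trim67, a tripartite motif protein of the nervous system, was at 43.0 and 40.8 CPM in primed P5 and 135 and 127 in primed P15 cells, against 7.42 to 12.1 CPM in naïve cells. Lzts1, a leucine zipper protein, was at 2.02 and 3.33 CPM in primed P5 and 24.7 and 21.01 in primed P15 cells, against 0.669 to 1.39 CPM in naïve cells. Both genes were ordered naïve, primed P5, primed P15, with Trim67 at the higher level and Lzts1 at the larger fold. Sdk1, an adhesion protein of synapses, was at 31.3 and 28.3 CPM in primed P15 cells, after 9.23 and 8.86 in primed P5 cells. The other members of the group were low in primed P15 cells. Shisa6, a protein that associates with glutamate receptors, had 16.5 and 18.3 CPM, and Pcp4l1, a small relative of Pcp4, had 13.2 and 16.4 CPM. Fabp7, the fatty acid binding protein of radial glia, had 7.18 and 7.37 CPM. Lix1 had 5.50 and 7.95 CPM, the widest gap between primed P15 libraries (1.44 times), and Galr2, a galanin receptor, had 6.02 and 5.82 CPM. Of the list of neural markers, only Fabp7 was among the 45 genes, and 36 of its 40 genes could be tested at P5. Calls in this and the other lists needed an edgeR adjusted p below 0.01 together with a fold of 2 or more. By these limits, 13.5% of all genes tested were higher and 8.85% lower in primed than in naïve cells at P5, and 0.414% were higher and 0.721% lower in naïve cells at P15 than at P5. Of the 36 neural markers, 16 (44.4%) were called higher and 9 (25.0%) lower in primed cells at P5.

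Another 11 genes belong to interferon, chemokine and acute phase responses or to immune cells. Isg15, a ubiquitin-like protein induced by interferon (chr4:156199424-156200818), was at 30.9 and 33.3 CPM in naïve P5, 7.23 and 6.20 in naïve P15, 64.9 and 68.9 in primed P5 and 230 and 239 in primed P15 cells. It thus stood lower in naïve cells at P15 than at P5, the opposite order to primed cells. Epsti1, an interferon-induced gene, had 1 and 1 counts in naïve P5, none in naïve P15, 15 and 12 in primed P5 and 151 and 158 in primed P15 cells. Ifi47, an interferon-inducible GTPase, was at 0.765 to 1.52 CPM in naïve, 3.26 and 3.96 in primed P5 and 13.8 and 11.8 in primed P15 cells. The chemokine Cxcl5 was at 13.4 and 11.8 CPM in primed P5 and 43.4 and 47.6 in primed P15 cells, and no naïve library exceeded 2.49 CPM. The chemokine Ccl8 had at most 2 counts in any naïve library, 18 and 29 in primed P5 and 136 and 160 in primed P15 cells.

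Steap4, a metalloreductase induced by inflammatory cytokines (chr5:7960457-7982213), was at 0.238 and 0.287 CPM in naïve P5, 0.209 and 0.304 in naïve P15, 8.38 and 9.36 in primed P5 and 88.5 and 97.4 in primed P15 cells. Both steps were therefore large in Steap4, and MEFs had 0.702 CPM. The acute phase protein haptoglobin (Hp) had at most 2 counts in any naïve library, 55 and 38 in primed P5 and 264 and 256 in primed P15 cells. Serpina3g, a protease inhibitor induced in immune cells (chr12:104236245-104241939), was at 13.4 and 13.9 CPM in primed P5 and 59.1 and 62.4 in primed P15 cells, and its pseudogene neighbour Serpina3h was at 4.33 and 3.83 and then at 14.6 and 16.8 CPM. Their starts lie 11.66 kb apart, and they were the only pair of the 45 genes with starts within 100 kb. Ikzf1, the lymphoid transcription factor Ikaros, was at 6.24 and 5.59 CPM in primed P5 and 27.7 and 28.3 in primed P15 cells, against 0.487 to 1.10 CPM in naïve cells. Arg1, the arginase of liver and alternatively activated macrophages, had the lowest level of all, with 4.29 and 6.05 CPM in primed P15 cells. In the bar plots of 8 of these genes, primed P15 is the tallest bar throughout and the naïve bars are low except for Isg15.

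**Figure D2:**
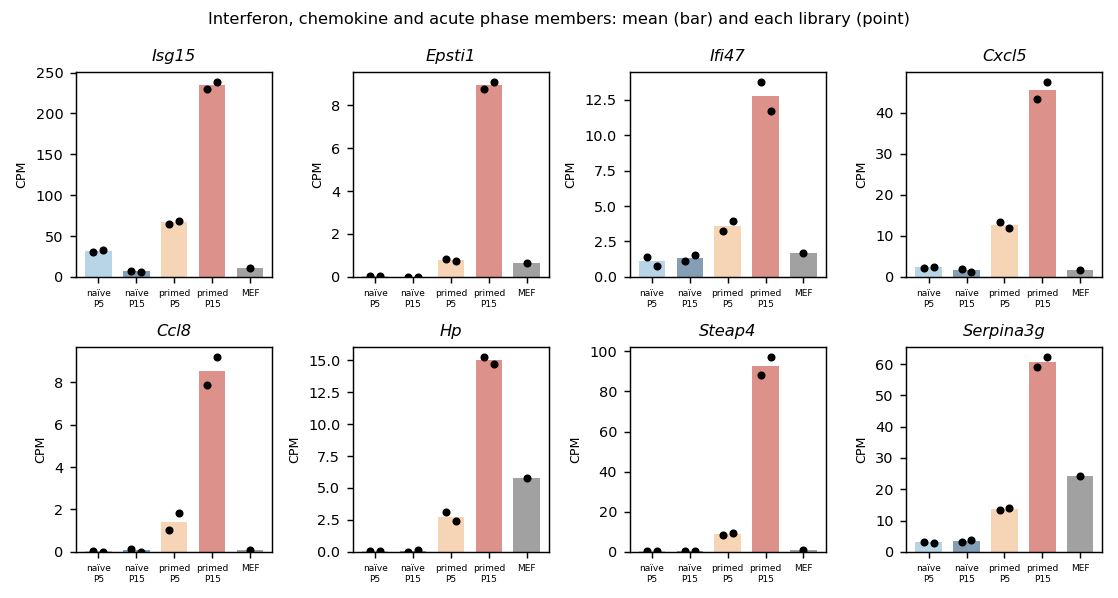
CPM of 8 interferon, chemokine and acute phase genes, with bars for the mean of each group (1 library for MEF) and a point for each library. The primed P15 bar is the tallest in every panel, Isg15 is lower in naïve P15 (7.23 and 6.20 CPM) than in naïve P5 cells (30.9 and 33.3 CPM), and MEF reaches 24.3 CPM for Serpina3g.

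The wider list of interferon and immune genes had 588 genes in the file, of which 6 were among the 45 (Isg15, Serpina3g, Cxcl5, Serpina3h, Ifi47 and Ccl8). At P5, 286 of the list could be tested, and 125 (43.7%) were called higher and 23 (8.04%) lower in primed than in naïve cells, beside 13.5% and 8.85% of all genes. In naïve cells at P15 against P5, 252 could be tested, and 2 (0.794%) were called higher and 30 (11.9%) lower, Isg15 among them, beside 0.414% and 0.721% of all genes. In the list, 18 of 179 genes at a level of 5 or more in primed P15 cells were at least 2 times their primed P5 level, where all genes at that level had 2.01%. The rule itself put 6 of the 18 there, so nothing is read from this share.

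A further 6 genes act on vessels or as growth factors and receptors. Apln, the ligand apelin (chrX:48025146-48034853), was at 8.01 and 7.70 CPM in naïve P5, 5.42 and 5.11 in naïve P15, 9.45 and 8.73 in primed P5 and 50.5 and 50.8 in primed P15 cells. Its level was near even over the 3 other groups, and the increase fell between primed P5 and P15. Its receptor gene Aplnr, looked up after its values could be seen, was at 36.7 and 40.3 CPM in primed P5 and 15.5 and 15.2 in primed P15 cells, the reverse of its ligand between these 2 groups, and did not exceed 0.139 CPM in any naïve library. Angptl7, an angiopoietin-like secreted protein, was at 5.74 and 6.78 CPM in primed P5 and 33.0 and 36.8 in primed P15 cells. Ednrb, an endothelin receptor of the neural crest, was at 1.63 and 2.58 CPM in primed P5 and 16.04 and 16.4 in primed P15 cells, and at 15.3 CPM in MEFs. Angpt1 and Angpt4, ligands of the receptor Tek, were at 14.5 and 12.5 CPM and at 6.02 and 4.72 CPM in primed P15 cells. Tek itself, looked up in the same way, ran from 10.4 and 10.04 CPM in naïve P5 to 0.927 and 0.806 CPM in primed P15 cells, so that ligands and receptor were in opposite order. Igf1, the insulin-like growth factor, was at 13.8 and 15.95 CPM in primed P15 cells, at 2.30 to 4.38 CPM in the other pluripotent libraries and at 242 CPM in MEFs.

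The list of growth factor ligands and secreted inhibitors held 94 genes, of which Lefty1, Fgf8, Apln, Igf1 and Angpt1 were among the 45. At P5, 86 could be tested, with 32 (37.2%) called higher and 11 (12.8%) lower in primed cells. In naïve cells at P15 against P5, 5 of 81 (6.17%) were called higher and 1 (1.23%) lower. Ednrb was on the list of growth factor receptors, of which 21 of 57 (36.8%) were called higher and 4 (7.02%) lower at P5, and on that of neural crest markers, with 4 of 16 (25.0%) higher and 1 (6.25%) lower.

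A set of 7 genes serves steroid, lipid or carrier functions. Hsd11b1, the enzyme that regenerates active glucocorticoid in cells, was at 6.75 and 8.23 CPM in primed P5 and 24.3 and 25.4 in primed P15 cells, and no naïve library exceeded 0.572 CPM. Cyp7b1, an oxysterol hydroxylase, was at 2.53 and 4.02 CPM in primed P5 and 17.6 and 18.7 in primed P15 cells. Them4, an acyl-CoA thioesterase, reached 27.6 and 30.4 CPM, and Apod, a lipid-carrying lipocalin, reached 16.8 and 15.95 CPM in primed P15 cells. The lipocalin Mup6 was at 20.1 and 25.7 CPM in primed P15, 4.28 and 3.71 in primed P5 and 3.57 and 4.83 in naïve P5 cells, so that naïve and primed cells overlapped at P5. Cyp2b23, a cytochrome P450, had 7.70 and 8.06 CPM and Cbr2, a carbonyl reductase of lung, had 5.04 and 6.16 CPM in primed P15 cells. The list of lipid, retinoid and steroid genes held 388 genes, of which Hsd11b1, Cyp7b1, Apod, Cyp2b23 and Fabp7 were among the 45. Primed cells at P5 had 42 of 198 (21.2%) called higher and 12 (6.06%) lower. In naïve cells at P15 against P5, 0 of 177 were called higher and 3 (1.69%) lower.

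The last 6 genes remained outside these roles. Lum (chr10:97565128-97572703) encodes lumican, a proteoglycan of the collagen matrix, and was at 11.96 and 11.05 CPM in naïve P5, 9.25 and 8.87 in naïve P15, 101 and 97.4 in primed P5 and 302 and 328 in primed P15 cells. MEFs had 136 CPM, more than primed P5 and less than primed P15 cells. Ppp4r4, a regulatory subunit of protein phosphatase, was at 38.2 and 42.4 CPM in primed P15 cells, and Rflna, a filamin-interacting protein, was at 12.05 and 12.09 CPM. Ccdc85a reached 25.8 and 29.9 CPM, Tcerg1l 6.83 and 7.31 CPM and Unc93a 5.56 and 5.99 CPM. The list of other developmental transcription factors held 379 genes, with Ikzf1 and Mixl1 among the 45. At P5, 62 of 306 (20.3%) were called higher and 52 (17.0%) lower, beside 13.5% and 8.85% of all genes. In naïve cells, 2 of 293 (0.683%) were higher and 3 (1.02%) lower, near the 0.414% and 0.721% of all genes.

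Primed and naïve cells at P5 were also compared gene by gene. The comparison used the quasi-likelihood test of edgeR on the 4 P5 libraries. Calls needed an adjusted p under 0.01 (Benjamini-Hochberg over 16482 genes) and a fold of at least 2. Of the 43 genes with enough counts, 27 were called higher in primed cells, none lower and 16 not called, while Gad2 and Cbr2 had too few counts. Over all genes tested, 13.5% were called higher and 8.85% lower. The rule used the same naïve P5 and primed P5 libraries and bounded both, so nothing about the 45 genes as a group is read from these counts. Of the 43, 10 passed the low-count filter only through their primed libraries, and of the 30 with at least 10 counts in both naïve P5 libraries 14 were called higher. The count also hung on the primed P5 libraries. Without primed P5 replicate 1 it was 16, and without primed P5 replicate 2 it was 13, of 33 genes that could then be tested.

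The smallest adjusted p among the called genes were those of Lum, Fgf8, Trim67 and Steap4. Lum was higher in primed cells by 2.91 ± 0.07 on the log2 scale (SE, edgeR adjusted p = 1.30e-24), and Fgf8 by 3.90 ± 0.15 (edgeR adjusted p = 5.29e-20). Trim67 was higher by 1.62 ± 0.09 (edgeR adjusted p = 4.73e-16) and Steap4 by 4.84 ± 0.31 (edgeR adjusted p = 1.56e-14). Steap4, with 5 and 6 counts in naïve P5 cells, entered the test only through its primed libraries, so that it had to differ. The value of Steap4 is therefore a description. Trh, Isg15 and Them4 passed the adjusted p but not the fold. Trh was higher by 0.97 ± 0.04 (edgeR adjusted p = 4.27e-20) and Isg15 by 0.86 ± 0.06 (edgeR adjusted p = 7.47e-13). Them4 was higher by 0.89 ± 0.18 (edgeR adjusted p = 7.01e-05). Lefty1 was the only gene that passed the adjusted p in the other direction, with -0.20 ± 0.04 (edgeR adjusted p = 2.67e-05), and with library sizes alone in place of TMM scaling its value was 0.00 with an adjusted p of 0.968. That change of scaling moved the median of all genes from 0.01 to 0.21 on the log2 scale. Apln, Ccdc85a, Serpina3h, Igf1 and Lix1 lay between -0.09 and 0.11 and were not called. Angptl7 was higher by 1.40 ± 0.22 (edgeR adjusted p = 1.86e-06), and Hsd11b1, Cxcl5 and Serpina3g were higher by 4.16, 2.22 and 1.94. Hsd11b1, with 12 and 3 counts in naïve P5 cells, could enter the test only with a primed library, so its value is a description. The plot of the 2 steps shows Fgf8, Hsd11b1 and Lum with a large step at P5 and a later step near the limit, Steap4 with both steps large, and Chgb and Gad2 highest in the later step.

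**Figure D3:**
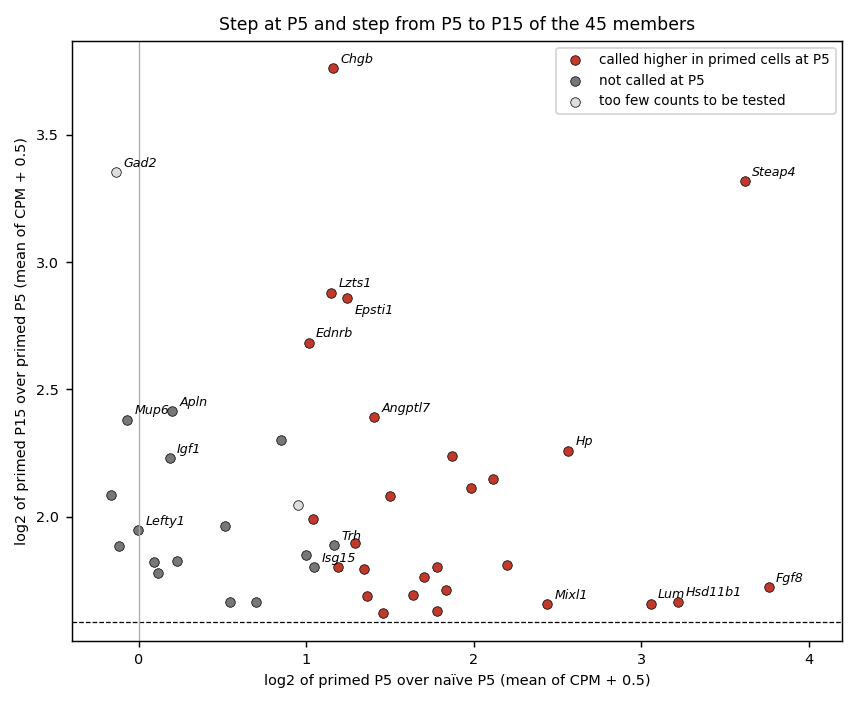
Log2 ratio of primed P5 to naïve P5 level (x axis) and of primed P15 to primed P5 level (y axis), from means of CPM + 0.5, for 45 genes coloured by the call at P5. Of the genes tested, 10 passed the low-count filter only through their primed P5 libraries. The dashed line marks the 3-fold limit of the rule, Chgb lies highest, Steap4 is high on both axes, and Lefty1, Mup6 and Gad2 lie at about 0 on the x axis.

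In naïve cells at P15 against P5, 31 of the 45 genes could be tested. Isg15 was called lower, by -2.24 ± 0.11 on the log2 scale (edgeR adjusted p = 3.73e-08), and no gene was called higher. At the adjusted p alone, Trh (-0.60 ± 0.05, edgeR adjusted p = 1.67e-06) and Lefty1 (-0.36 ± 0.04, edgeR adjusted p = 8.42e-05) were also lower, and still none was higher. Of all 15683 genes tested, 0.414% were called higher and 0.721% lower. The rule also bounded these naïve levels from above. Isg15, and at the adjusted p alone Trh and Lefty1, were thus lower in naïve cells at P15 than at P5. The 3 genes had their highest level in primed P15 cells, as the rule requires among pluripotent groups. Fibroblast markers, given below, summed higher in naïve P15 than in naïve P5 cells. The part of fibroblast RNA in these differences was not tested.

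Because naïve and primed cells grew on fibroblasts, the MEF level was set beside each gene. No source used here says whether feeder cells were removed before RNA was taken. In bulk RNA, a different number of cells of a type and a different amount of RNA per cell cannot be told apart. Igf1 (242 CPM in MEFs) and Cbr2 (8.19 CPM) were at or above their primed P15 level in MEFs, beside 37.5% of the genes at a level of 5 or more. Ednrb (94.2%), Fabp7 (61.6%), Angpt1 (60.0%), Rflna (59.4%) and Apod (51.4%) had MEF levels of over 50% of that in primed P15 cells. In 25 genes the MEF level was 10% or less of the primed P15 level, among them Trh, Lefty1, Isg15, Trim67, Fgf8 and Steap4. Trh, Mup6 and Cyp2b23 had 0 counts in MEFs. In 15 genes the MEF level was above all 3 other pluripotent groups. Only for MEF levels at or above primed P15 was a share counted over the genes at a level of 5 or more. The other counts, including those at 10% and 50%, have no such comparison. They describe single genes, and no trait of the group is read from them. The plot of MEF against primed P15 level shows Igf1 and Cbr2 alone above the diagonal.

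**Figure D4:**
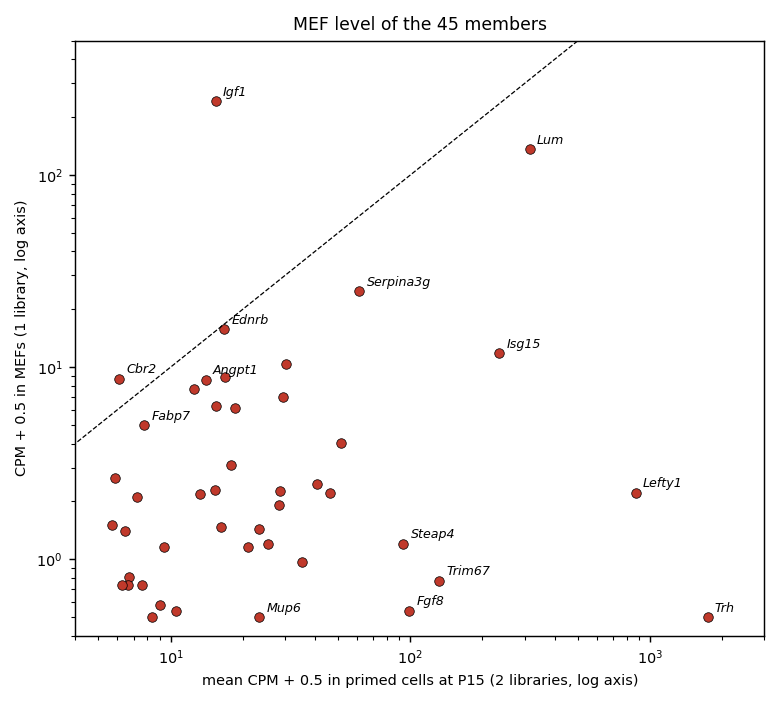
CPM + 0.5 in the MEF library (y axis) against the mean CPM + 0.5 of the 2 primed P15 libraries (x axis), both on log axes, for the 45 genes. The dashed line marks equal levels, only Igf1 and Cbr2 lie above it, and Trh, at 1738 CPM in primed P15 cells, has 0 counts in MEFs.

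None of the 30 fibroblast markers was at 0 in any library. They summed to 11796 and 11912 CPM in naïve P5, 18889 and 19610 in naïve P15, 8921 and 8786 in primed P5 and 18403 and 17890 in primed P15 cells, against 85515 CPM in MEFs. Their sum was thus higher at P15 than at P5 in both states, and the sums of naïve P15 and primed P15 cells were close to each other. Single markers did not all follow the sum. Acta2 was at 276 and 260 CPM in primed P5, 123 and 116 in primed P15 and 1207 and 1306 in naïve P15 cells. Col3a1 was at 404 and 395 CPM in primed P5, 2035 and 2060 in primed P15 and 931 and 982 in naïve P15 cells. Of the list, 27 were at a level of 5 or more in primed P15 cells. Of these, 9, Lum by the rule, were at least 2 times their primed P5 level. Among all genes at a level of 5 or more in primed P15 cells, 2.01% were. Primed against naïve cells at P5 had 3 of the 30 called higher and 8 (26.7%) lower, beside 13.5% and 8.85% of all genes. Naïve cells at P15 against P5 had 5 (16.7%) higher and 1 (3.33%) lower, beside 0.414% and 0.721% of all genes. Lum was the only one among the 45 genes. Lum, the matrix protease Mmp2 and Dcn, which encodes the related proteoglycan decorin, were the 3 markers above their MEF level in primed P15 cells. Dcn was at 727 and 759 CPM in primed P15 and 526 and 518 in primed P5 cells, at 17.8 to 41.7 CPM in naïve cells and at 194 CPM in MEFs. The median marker was at 26.3% and 25.1% of its MEF level in primed P15 cells. For genes with MEF levels of over 50% of the primed P15 level, the part of fibroblast RNA in the difference was not tested.

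The 45 genes lay on 17 chromosomes, with 7 on chromosome 11. Their exons, merged per gene, had a median length of 2.45 kb, beside 4.61 kb for the genes at a level of 5 or more. Only Serpina3g and Serpina3h had another of the 45 starting within 100 kb, whereas 77.8% of the genes at that level had another such gene so near, a share that grows with the number of genes. Exons of 3 genes overlapped those of another gene. Those of Angpt1 overlapped an antisense RNA (14.2% of its exon bases), those of Ifi47 overlapped Olfr56 on the same strand (4.49%), and those of Trim67 overlapped a noncoding transcript (1.60%). The overlapping genes did not exceed 2.03 CPM in any library. Lefty1, Serpina3g, Serpina3h, Mup6 and Cyp2b23 have relatives in the same gene families. Their counts are uncertain to the extent that reads were split among copies, whose likeness was not tested. In pluripotent libraries, the highest other Mup gene looked up was Mup20, at 0.345 CPM, and the highest other Cyp2b gene Cyp2b19, at 0.394 CPM. Serpina3n reached 32.4 CPM in primed P15 cells.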

How the data were processed

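RNA-seq of 9 libraries was used. The deposited values are raw counts. To make them, the authors selected poly(A) RNA, sequenced it on an Illumina HiSeq, trimmed reads with Cutadapt, aligned them to mm10 (HISAT2) and assigned them to Ensembl genes (featureCounts). The Ensembl release, and how strand and reads with several alignments were counted, are not given in the sources used here. Names and coordinates came from GENCODE M21 (GRCm38), which named 54165 of 54232 IDs, and 92 spike-in entries with 0 counts were left out.

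CPM used library totals, with 0.5 added. Comparisons used edgeR 4.0.16 in R 4.3.3 on the counts as deposited, with TMM scaling, for genes that reached 10 counts in 2 or more libraries of the 4. The p-values measure the spread between libraries. Code was tested on simulated data. Alternatives were DESeq2 1.42.0, other scalings, filters and limits, a replicate block and leaving out each library. The 45 genes, the 27 gene lists and the roles were chosen with earlier results of these data known. The letters of the response element, STAT, NF-kB and FoxH1, as well as Lefty2, Aplnr and Tek, were chosen after values were seen. Genes were named when among the 12 highest or 12 largest folds, nearest the limit, with the 5 smallest adjusted p or 5 highest MEF levels, or on a list, and the remaining genes were added for completeness. The table of promoters was from RefSeq, and protein sequences were not analysed here.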

Additional observations from a re-analysis of the deposited data

How the results depend on the processing

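The rule gave 152 genes with a limit of 2 times and 16 with a limit of 4 times in place of 3. It gave 52 genes on TMM-scaled CPM, 49 on DESeq2 size factors and 47 with 0.1 added, each including all 45, and 38 with 1 added and 32 with a level of at least 10, all of them among the 45. TMM scaling multiplied CPM by 0.883 in primed P5 and by 0.991 and 0.987 in primed P15 libraries. Leaving out 1 library gave 42 to 45 genes. The genes lost without a primed P15 library were Ifi47 and Trim67, or Arg1, Lix1, Mixl1, Pcp4l1 and Shisa6. Calls higher in primed cells at P5 numbered 13 to 24 with 1 library left out, 14 over the genes with at least 10 counts in both naïve libraries (an alternative chosen after seeing the data), 19 by DESeq2 or without the low-count filter, 31 with library sizes alone and 30 by adjusted p alone, beside 27. By adjusted p alone, 1 gene was lower at P5 and 3 were lower in naïve cells at P15. For calls lost when a primed P5 library was left out, 33 in place of 43 genes could be tested. With the replicate number as a block, 27 genes were called higher and 0 lower at P5, and 0 higher and 1 lower in naïve cells, and the block changed no count. Same-numbered libraries deviated with a correlation of -0.11 at P5 and 0.15 in naïve cells, and the crossed pairing, added after seeing the data, also gave 27. Of the genes called at P5, 9 (Angpt4, Arg1, Chgb, Cyp2b23, Ednrb, Fabp7, Lzts1, Shisa6 and Sostdc1) lost the adjusted p or the fold 31 times in all under alternatives where they could still be tested, and none changed direction. On TMM-scaled CPM, 3 genes were at or above their primed P15 level in MEFs. Depth limited, among others, Gad2, Epsti1, Ccl8, Hp, Mixl1, Unc93a, Chgb, Steap4, Cbr2, Arg1, Sostdc1 and Hsd11b1, which had few counts in naïve libraries. Chgb and Steap4 had the largest folds of the 45 genes.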
